A study of Mus musculus with 7 samples.

Results

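RNA-Seq of 5C-Oct4GFP+ cells was compared with RNA-Seq of R1 ESCs-primed, to ask how the pluripotent cells obtained with 5C medium differ in gene expression from primed pluripotent stem cells. These are 2 of the 7 libraries of the series, with 1 library per group and no replicates, so that no test between conditions was possible. Every gene with at least 5 TPM (transcript level corrected for gene length and for the total of the library) in either library was compared, which left 11703 of 29267 genes. At the edge of this filter, *C1qtnf1* with 5 TPM in 5C-Oct4GFP+ cells was just inside it.

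The 5C-Oct4GFP+ cells came from OG2 mouse embryonic fibroblasts (MEFs), which carry a GFP reporter under the *Oct4* promoter (GOF18ΔPE). Retroviruses delivered the factors *c-Myc*, *Klf4*, *Oct4* and *Sox2* to the fibroblasts. They were then kept in 5C medium, a serum-free medium with N2, bFGF, vitamin C, β-mercaptoethanol and LIF, and the GFP+ fraction was sorted by FACS on day 15, at 0 passages. R1 is an established mouse embryonic stem cell line. R1 ESCs-primed are derivatives of this line that had at first shared their dishes with MEF feeders and were later grown without them, on serum-coated plastic, where CHIR99021 and IWR-1 replaced the growth factors. They were at 20 passages and were not sorted. A pair of further libraries used below came from 5C-Oct4GFP+ cells moved to naive medium (LIF and 2i) or to primed medium. The labels give 20 passages for both, but the study also describes a culture of a few days, so that their time in these media is uncertain. Further, 5C-Oct4GFP- and mES-Oct4GFP- are the GFP- fractions of the day 15 cultures in 5C and conventional mES medium. Origin of the cells, retroviral factors, passages, sorting, medium and feeder contact all differed between 5C-Oct4GFP+ cells and R1 ESCs-primed, and their parts in any difference cannot be told apart. Retroviral transcripts of *Oct4* (*Pou5f1*), *Sox2* and *Klf4* share their coding sequence with the endogenous genes, so that reads of the 2 sources cannot be told apart either.

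Mouse pluripotent cells can be held in a naive state, which resembles the epiblast before implantation, or in a primed state, which resembles the epiblast shortly before gastrulation. Both express *Pou5f1* and *Sox2*. The naive state depends on LIF signals and on factors such as *Esrrb*, *Tfcp2l1* and *Klf4*, whereas primed cells depend on FGF and Nodal signals and readily express genes of the primitive streak and of early germ layers.

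The estimated reads summed to 10443952 in 5C-Oct4GFP+ cells and 7188043 in R1 ESCs-primed, within the 6108252 to 11496615 of the 7 libraries. At the median gene length, 1 read equalled 0.105 TPM and 0.155 TPM, respectively. Differences were taken on log2(TPM + 1), which understates the change of low genes. Ratios of TPM have exact 95% intervals from the reads, which cover counting error only and say nothing of the spread between cultures. A gene without a read was set to the level of 3 reads in that library, and its ratio is then given as at least that value. This bound is a setting and lies above the lower limit of the exact interval, for the gene *Klk1* 738 against 599.9. In bulk RNA, fewer cells that express a gene and less RNA per cell cannot be told apart.

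Of the 11703 genes, 1661 (14.2%) were higher by 2-fold or more in 5C-Oct4GFP+ cells and 1543 (13.2%) at least 2-fold lower, together 27.4%, and 8499 were neither. The median difference over all genes was -0.08, with quartiles of -0.54 and 0.47. At 4-fold, 760 genes were higher and 542 lower, and at 16-fold 135 were higher and 52 lower. The counting interval of the ratio excluded 1 for 1647 of the higher and 1536 of the lower genes, and lay wholly beyond 2-fold for 1278 and 1159. Next to the threshold, *Plekhg5* (25.1 against 12.0 TPM) was counted as higher and *Cars* (176 against 87.6 TPM) was not, and *Socs5* (5.76 against 12.5 TPM) was counted as lower and *Pafah1b2* (26.0 against 53.0 TPM) was not. Low genes were called more often: with a mean TPM between 2.5 and 5, 32.6% were higher and 37.2% lower, against 8.93% and 4.77% of genes with a mean over 100 TPM.

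**Figure D1:**
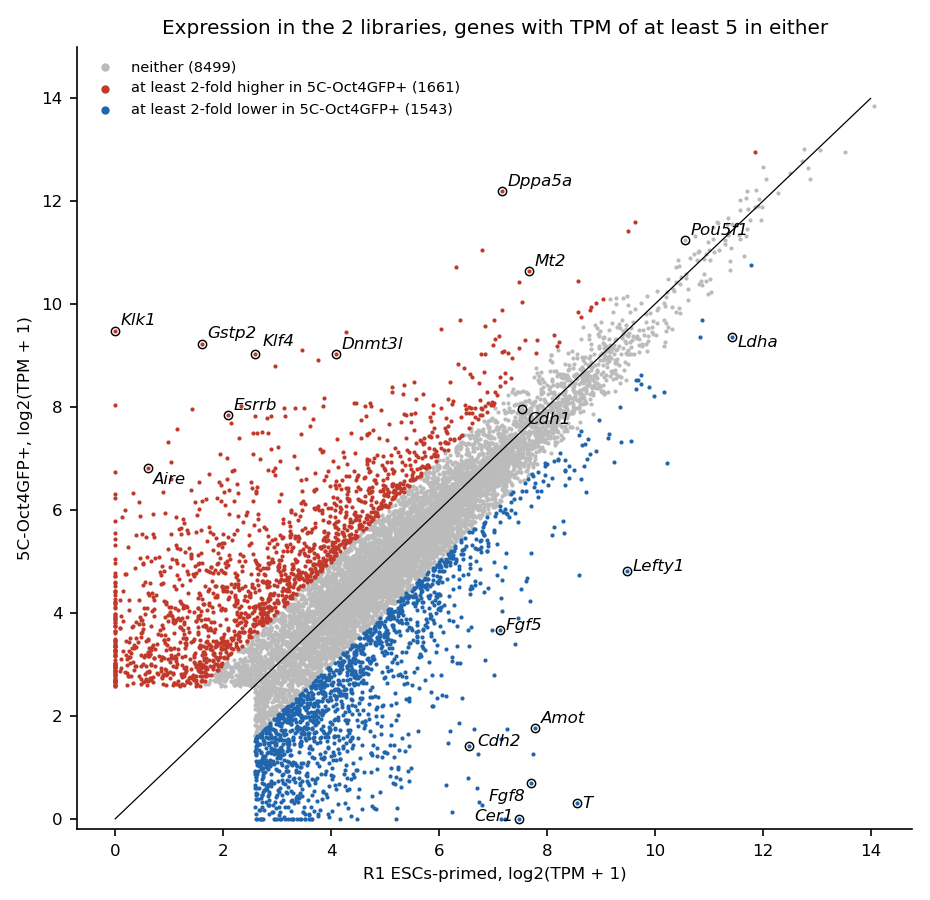
Each point is 1 of the 11703 genes, with log2(TPM + 1) in R1 ESCs-primed on the x axis and in 5C-Oct4GFP+ cells on the y axis (1 library each). Red points are the 1661 genes higher by 2-fold or more in 5C-Oct4GFP+ cells, blue points the 1543 at least 2-fold lower, grey points the rest, and the line marks equal values. *Pou5f1* and *Cdh1* lie close to the line, *Esrrb*, *Klf4* and *Dnmt3l* far above it, and *T*, *Cer1* and *Fgf8* far below it.

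Genes of the naive state were among those with the largest differences. Of 24 naive genes, all above the filter, 23 were higher by 2-fold or more in 5C-Oct4GFP+ cells and 1 was lower, with a median difference of 4.35 against -0.08 over all genes. With no pseudocount and values under 3 reads set to that floor the median was 5.08. Under 5 TPM in R1 ESCs-primed were 15 of the 24, which passed only through the library in which they were higher, and of the 9 above 5 TPM in both libraries 8 were higher and 1 was lower. *Esrrb*, an orphan nuclear receptor of the naive network, had 230 TPM in 5C-Oct4GFP+ cells and 3.28 TPM in R1 ESCs-primed, a ratio of 70.0 (95% interval 52.6 to 95.5). *Fbxo15*, a gene of an F-box protein used as a pluripotency marker, had 258 and 4 TPM (ratio 64.6, 42.1 to 104.5). *Khdc3*, an oocyte and early embryo gene, had 716 reads (78.0 TPM) in 5C-Oct4GFP+ cells and none in R1 ESCs-primed, and was at least 112-fold higher. *Klf4* had 522 and 5.01 TPM (ratio 104, 80.3 to 138), in which any reads of a retroviral copy would be included. The 5C-Oct4GFP- cells, which had received the same virus, had 1512 TPM of *Klf4*, whereas *Esrrb* stood at 15.3 TPM there. The adhesion gene *Pecam1* had 28.6 and 2.42 TPM, the T-box factor *Tbx3* 48.0 and 1.53 TPM, and *Dppa3*, a maternal factor that protects methylation marks in the zygote, 71.3 and 2.05 TPM. The smallest of the 23 was *Alpl*, alkaline phosphatase, with 52.9 and 12.0 TPM. The exception was *Spp1*, which encodes the secreted protein osteopontin, with 661 TPM in 5C-Oct4GFP+ cells and 1840 TPM in R1 ESCs-primed (2.78-fold lower, 2.69 to 2.88).

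Within the naive group the levels of 5C-Oct4GFP+ cells were not uniformly those of the cells in naive medium. *Esrrb* had 207 TPM and *Klf2* 288 TPM after culture in naive medium, close to the 230 and 254 TPM of 5C-Oct4GFP+ cells. *Tfcp2l1*, another factor of the naive network, had 29.1 TPM in 5C-Oct4GFP+ cells, 153 TPM in naive medium and 0.82 TPM in R1 ESCs-primed. *Dppa3* had 71.3, 389 and 2.05 TPM in the same order, and *Alpl* 52.9, 308 and 12.0 TPM. These last genes therefore had a level in 5C-Oct4GFP+ cells between R1 ESCs-primed and the naive culture.

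The core pluripotency genes differed less. Of 12, 4 were higher by 2-fold or more in 5C-Oct4GFP+ cells, 1 was lower and 7 were neither, with a median of 0.59. *Pou5f1*, which encodes OCT4, had 2429 TPM in 5C-Oct4GFP+ cells and 1503 TPM in R1 ESCs-primed (ratio 1.62, 1.57 to 1.66), and *Nanog* had 253 and 131 TPM (ratio 1.93, 1.80 to 2.07). *Sox2* had 459 and 81.2 TPM (ratio 5.65, 5.24 to 6.11). The chromatin-associated pair *Dppa2* and *Dppa4* was higher, with 63.2 against 9.98 TPM and 260 against 13.4 TPM. *Dppa4* had 68.2 TPM in naive medium and 0.54 TPM in primed medium. The RNA-binding gene *Lin28a*, a repressor of let-7 miRNAs, was the lower member, with 109 and 321 TPM, and *L1td1* had 363 and 438 TPM.

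In 5C-Oct4GFP+ cells some formative and primed genes were near or above the level of R1 ESCs-primed and others below it. Of 19 genes, 18 passed the filter: 2 were at least 2-fold higher, 9 lower and 7 neither, with a median of -1.01. *Otx2*, a homeobox factor that directs exit from the naive state, had 189 TPM in 5C-Oct4GFP+ cells and 134 TPM in R1 ESCs-primed (ratio 1.41, 1.30 to 1.53), against 1.15 TPM in naive medium. *Zic5*, a zinc finger factor, had 38.1 and 55.0 TPM (1.44-fold lower, 1.29 to 1.61). *Grhl2*, an epithelial transcription factor, had 43.7 and 8.42 TPM. *Fgf5*, the FGF ligand that marks the post-implantation epiblast, had 11.7 and 139 TPM, 11.9-fold lower (10.1 to 14.1). In naive medium *Fgf5* had 0.09 TPM, so that the level in 5C-Oct4GFP+ cells lay between those of naive and primed cultures. *Car14*, a carbonic anhydrase gene, was the lowest of the group with 2.27 and 47.7 TPM. The group thus held members at or above the primed level and members more than 10-fold below it, and *Dnmt3b*, a de novo DNA methyltransferase, lay between with 366 and 823 TPM.

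Genes of gastrulation had the lowest median of the gene lists examined. All 18 were found and 13 passed the filter, 13 lower and 0 higher, with a median of -5.02, or -6.99 with values under 3 reads set to that floor and no pseudocount. *Eomes* and *Hhex* were above 5 TPM in both libraries, and the other 11 passed only through R1 ESCs-primed and could not be higher in 5C-Oct4GFP+ cells. *T* (Brachyury), the T-box factor of the primitive streak, had 2 reads (0.24 TPM) in 5C-Oct4GFP+ cells and 2349 reads (374 TPM) in R1 ESCs-primed, a ratio of 1559 (426 to 12741) in favour of the latter. *Cer1*, which encodes a secreted antagonist of Nodal, BMP and Wnt, had no read in 5C-Oct4GFP+ cells and 178.5 TPM in R1 ESCs-primed, at least 566-fold lower. *Foxa2*, a factor of axial mesoderm and endoderm, had 1 read (0.25 TPM) and 792 reads (106 TPM), and *Fgf8* had 0.63 and 208 TPM. Of the members above 100 TPM in R1 ESCs-primed, *Eomes*, a T-box factor of mesendoderm, had the most RNA in 5C-Oct4GFP+ cells, with 7.49 and 115 TPM (15.4-fold lower, 12.9 to 18.3). The smallest differences were those of *Hhex* (5.17 and 21.5 TPM) and *Evx1* (1.43 and 5.08 TPM). Below the filter, *Kdr*, *Cdx1*, *Tbx6*, *Mesp1* and *Cdx2* had at most 4.04 TPM in either library. The summed level of the 18 genes was 23.3 TPM in 5C-Oct4GFP+ cells, 1319 TPM in R1 ESCs-primed, 1377 TPM in primed medium and 124 TPM in naive medium. Most of the sum in naive medium came from *Cdx1* (69.3 TPM) and *Cdx2* (16.3 TPM), whereas *Cer1* had 0.26 TPM and *Foxa2* 0.11 TPM there.

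**Figure D2:**
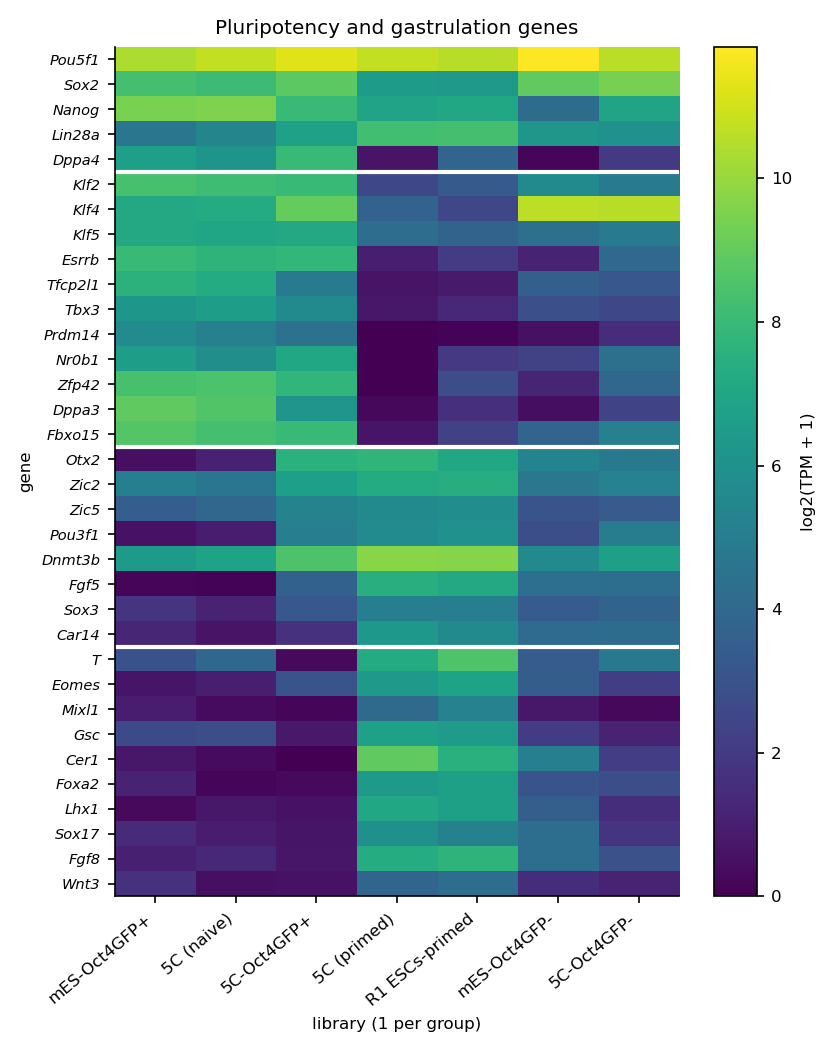
Colour gives log2(TPM + 1) of selected genes (rows) in the 7 libraries (columns, 1 library per group), and white lines separate core, naive, formative or primed, and gastrulation genes from top to bottom. The column of 5C-Oct4GFP+ cells is bright for naive genes such as *Esrrb* (230 TPM) and for *Otx2* (189 TPM), and dark for gastrulation genes such as *T* (0.24 TPM), *Foxa2* (0.25 TPM) and *Cer1* (0 TPM).

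Markers of other lineages differed by lineage. Of 16 primitive endoderm genes, 9 passed, of which 1 was higher, 6 lower and 2 neither, and 5 passed only through R1 ESCs-primed. Of the 3 above 5 TPM in both libraries 1 was lower. *Sox17* and *Gata6*, endoderm factors also counted with gastrulation, had 0.59 and 35.3 TPM and 0.56 and 18.1 TPM, whereas the laminin gene *Lama1* had 26.4 and 2.53 TPM. Of 14 neural genes 7 passed, 4 lower and 3 neither, with *Nes*, an intermediate filament gene of neural progenitors, at 9.26 and 80.2 TPM. Among the 7, 3 passed only through R1 ESCs-primed and could not be higher, and of the 4 above 5 TPM in both libraries 1 was lower. *Tubb3*, of neuronal tubulin, had 43.5 and 37.2 TPM. Of 15 trophoblast genes 5 passed, with 3 higher, 1 lower and 1 neither, and a median of 2.26. Among the 5, 2 passed only through 5C-Oct4GFP+ cells and 1 only through R1 ESCs-primed. *Tead4*, a partner of YAP needed for trophectoderm, had 25.04 and 3.70 TPM, but the defining genes *Cdx2*, *Elf5*, *Gata3* and *Hand1* were at most 0.77 TPM in 5C-Oct4GFP+ cells. *Eomes*, on this list as well as with gastrulation, was the lower member, with 7.49 and 115 TPM. None of the 15 early cleavage-stage genes found reached 5 TPM in either library, and they summed to 4.71 and 5.52 TPM. Of 22 *Hox* genes 2 passed, *Hoxc6*, which was lower, with 1.74 and 5.17 TPM, and *Hoxa9*, which was neither, with 2.69 and 5.47 TPM.

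LIF, a component of 5C medium, acts through gp130 (*Il6st*) and its co-receptor *Lifr* to activate STAT3. Of 15 genes of this pathway, all above the filter, 11 were higher by 2-fold or more in 5C-Oct4GFP+ cells, 1 was lower and 3 were neither, with a median of 1.95. Of the 12 above 5 TPM in both libraries 9 were higher and 0 lower. The receptor genes *Lifr* and *Il6st* had 31.6 against 7.43 TPM and 31.8 against 13.97 TPM, and *Stat3* itself 52.5 against 29.1 TPM. *Socs3*, the feedback inhibitor induced by STAT3, had 149 TPM in 5C-Oct4GFP+ cells and 7.13 TPM in R1 ESCs-primed (ratio 20.9, 16.4 to 27.0). The kinase gene *Jak2* was the lower member, with 2.16 and 9.12 TPM, and *Lif* had 6.10 and 7.96 TPM.

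FGF signals through ERK sustain the primed state, and bFGF is a component of 5C medium. Of 25 genes of FGF ligands, receptors and ERK feedback, 22 passed, with 5 higher, 7 lower, 10 neither and a median of -0.31. Over all genes compared 14.2% were higher and 13.2% lower. Of the 19 above 5 TPM in both libraries 5 were higher and 5 lower. The ligands went opposite ways: *Fgf4*, made by naive and early epiblast cells, had 199 and 11.3 TPM (ratio 17.7, 14.8 to 21.3), and *Fgf8* and *Fgf5* were lower as given above. The receptor gene *Fgfr1* had 60.4 and 132 TPM. The ERK phosphatase gene *Dusp6* had 73.7 TPM in 5C-Oct4GFP+ cells and 125 TPM in R1 ESCs-primed, far above the 7 TPM of naive medium, where ERK is inhibited. *Spry4*, an inhibitor of the pathway, had 22.5 and 21.02 TPM (ratio 1.07, 0.938 to 1.22) and 1.92 TPM in naive medium. Of the immediate early genes, *Fos* had 228 and 6.37 TPM and *Egr1* 253 and 64.9 TPM. *Fos* had 1.33 TPM in mES-Oct4GFP+ cells, 815 TPM in mES-Oct4GFP- cells and 821 TPM in 5C-Oct4GFP- cells. The part of sorting in these values was not tested.

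Nodal and activin act through SMAD2/3 and FOXH1. All 22 genes of the pathway passed, with 3 higher, 6 lower, 13 neither and a median of -0.66. Among the 22, 3 passed only through R1 ESCs-primed, and of the 19 above 5 TPM in both libraries 3 were higher and 3 lower. The counts among these 19 were near the shares over all genes compared, 14.2% higher and 13.2% lower. The ligand gene *Nodal* had 40.3 TPM in 5C-Oct4GFP+ cells and 77.0 TPM in R1 ESCs-primed (1.91-fold lower, 1.69 to 2.16), and its co-receptor *Tdgf1* 710 and 508 TPM. *Foxh1* had 71.1 and 112 TPM. The related ligand gene *Gdf3* had 94.5 and 9.81 TPM (ratio 9.63, 7.68 to 12.4). The targets and antagonists *Lefty1* and *Lefty2* went opposite ways: *Lefty1* had 27.1 and 715 TPM, 26.4-fold lower (22.9 to 30.6), and *Lefty2* 58.1 and 21.5 TPM.

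Of 20 genes of the Wnt pathway and its targets, 17 passed, with 2 higher, 10 lower and 5 neither, and a median of -1.20, or -1.34 without pseudocount and with the floor. Among the 17, 8 passed only through R1 ESCs-primed, and of the 8 above 5 TPM in both libraries 1 was higher and 2 were lower. R1 ESCs-primed were kept with CHIR99021, which stabilizes β-catenin, together with the Wnt inhibitor IWR-1. The targets *Sp5*, *Axin2* and *Lgr5* were lower, at 0.43 against 28.9 TPM, 4.98 against 17.6 TPM and 0.04 against 19.7 TPM. *Dkk1*, a secreted Wnt antagonist, had no read against 154 reads (17.0 TPM), at least 76.3-fold lower. The exception was *Notum*, which encodes an enzyme that inactivates Wnt ligands, with 96.4 and 1.05 TPM (ratio 91.8, 45.8 to 192). *Notum* had 74.8 TPM in naive medium and 1.89 TPM in primed medium, but 154 TPM also in 5C-Oct4GFP- cells. *Fzd7*, a Wnt receptor gene, had 85.0 and 37.95 TPM, and *Ctnnb1*, of β-catenin itself, 483 and 617 TPM.

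In the BMP pathway 15 of 18 genes passed, with 2 higher, 8 lower, 5 neither and a median of -1.02. Among the 15, 6 passed only through R1 ESCs-primed and could not be higher in 5C-Oct4GFP+ cells. Of the 8 above 5 TPM in both libraries 1 was higher and 3 were lower, beside 14.2% and 13.2% over all genes compared. The ligand gene *Bmp2* had 0.10 and 10.2 TPM and the antagonist gene *Grem1* 0.04 and 12.6 TPM. The targets *Id2* and *Id4*, inhibitors of basic helix-loop-helix factors, were the higher members, with 80.8 against 35.4 TPM and 9.38 against 1.97 TPM, whereas *Id1* had 98.2 and 68.6 TPM (ratio 1.43, 1.22 to 1.68).

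Epithelial genes were mostly at or above the level of R1 ESCs-primed. Of 26, 24 passed, with 12 at least 2-fold higher, 4 lower and 8 neither, and a median of 0.97. Among the 24, 4 passed only through 5C-Oct4GFP+ cells and 1 only through R1 ESCs-primed. Of the 19 above 5 TPM in both libraries 8 were higher and 4 lower. *Cdh1*, of E-cadherin, had 249 TPM in 5C-Oct4GFP+ cells and 185 TPM in R1 ESCs-primed (ratio 1.35, 1.29 to 1.41). *Cldn4*, a tight junction gene, had 177 and 9.88 TPM (ratio 18.0, 14.03 to 23.3). *Krt17*, a keratin gene of basal and injured epithelia, had 121 and 1.06 TPM, and the simple epithelial keratins were lower, *Krt8* with 24.6 and 197 TPM and *Krt18* with 48.2 and 129 TPM. *Cldn6*, a claudin gene of early epithelia, had 82.2 and 236 TPM. Among 14 keratin genes 5 passed: *Krt17*, *Krt42* (26.7 and 2.37 TPM) and *Krt19* (22.7 and 8.93 TPM) were higher, and *Krt8* and *Krt18* lower. *Krt17* had 139 TPM in 5C-Oct4GFP- cells and 0 TPM in mES-Oct4GFP+ cells and in naive medium.

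Of the mesenchymal genes that passed the filter most were lower, many of them admitted only through R1 ESCs-primed. Of 19, 16 passed, with 1 higher, 11 lower and 4 neither, and a median of -1.80. Among the 16, 7 passed only through R1 ESCs-primed and could not be higher in 5C-Oct4GFP+ cells. Of the 9 above 5 TPM in both libraries 1 was higher and 4 were lower. *Cdh2*, of N-cadherin, had 1.65 TPM in 5C-Oct4GFP+ cells and 93.1 TPM in R1 ESCs-primed, 56.4-fold lower (41.5 to 78.6). *Cdh11*, another cadherin gene of mesenchyme, had 0.79 and 33.3 TPM. *Vim*, of vimentin, had 333 and 953 TPM (2.86-fold lower, 2.73 to 2.99). *Fn1*, of fibronectin, had 523 and 376 TPM, and *Tgm2*, of a matrix-crosslinking transglutaminase, was the higher member with 17.3 and 5.82 TPM. In the list of contractile genes and YAP targets 16 of 18 passed, with 3 higher, 4 lower and 9 neither. The shares over all genes compared were 14.2% higher and 13.2% lower. Among the 16, 3 passed only through R1 ESCs-primed, and of the 13 above 5 TPM in both libraries 3 were higher and 3 lower. The matricellular YAP targets *Ccn1* and *Ccn2* were higher (304 against 51.5 TPM and 178 against 24.5 TPM), and the muscle-type genes *Cnn1* and *Tpm2* lower (1.14 against 10.9 TPM and 21.3 against 119 TPM). *Acta2*, of smooth muscle actin, had 4.92 and 5.78 TPM (ratio 0.851, 0.545 to 1.34).

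Fibroblast markers were given as a check of the cells that both cultures could still hold. Of 18, 14 passed, with 0 higher, 10 lower and 4 neither, and a median of -3.55, or -4.84 without pseudocount and with the floor. The 10 lower ones passed only through R1 ESCs-primed and could not be higher, and the 4 above 5 TPM in both libraries were neither. They summed to 63.2 TPM in 5C-Oct4GFP+ cells and 384 TPM in R1 ESCs-primed, against 783 TPM in 5C-Oct4GFP- cells, 148 TPM in primed medium and 26.8 TPM in naive medium, and 10 of the 18 were under 1 TPM in 5C-Oct4GFP+ cells. *Col3a1*, a fibrillar collagen gene, had 1.78 and 71.3 TPM and *Col1a2* 0.90 and 41.8 TPM. *Fbln2*, of the matrix protein fibulin-2, made up most of the sum in 5C-Oct4GFP+ cells with 32.1 TPM, and had 45.6 TPM in R1 ESCs-primed. R1 ESCs-primed had been induced on fibroblast feeders, and the part of feeder RNA in their mesenchymal and fibroblast values was not tested. Nor was the part of GFP- cells in the values of 5C-Oct4GFP+ cells, in which *Col3a1* was 1.78 TPM beside 71.7 TPM in 5C-Oct4GFP- cells.

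**Figure D3:**
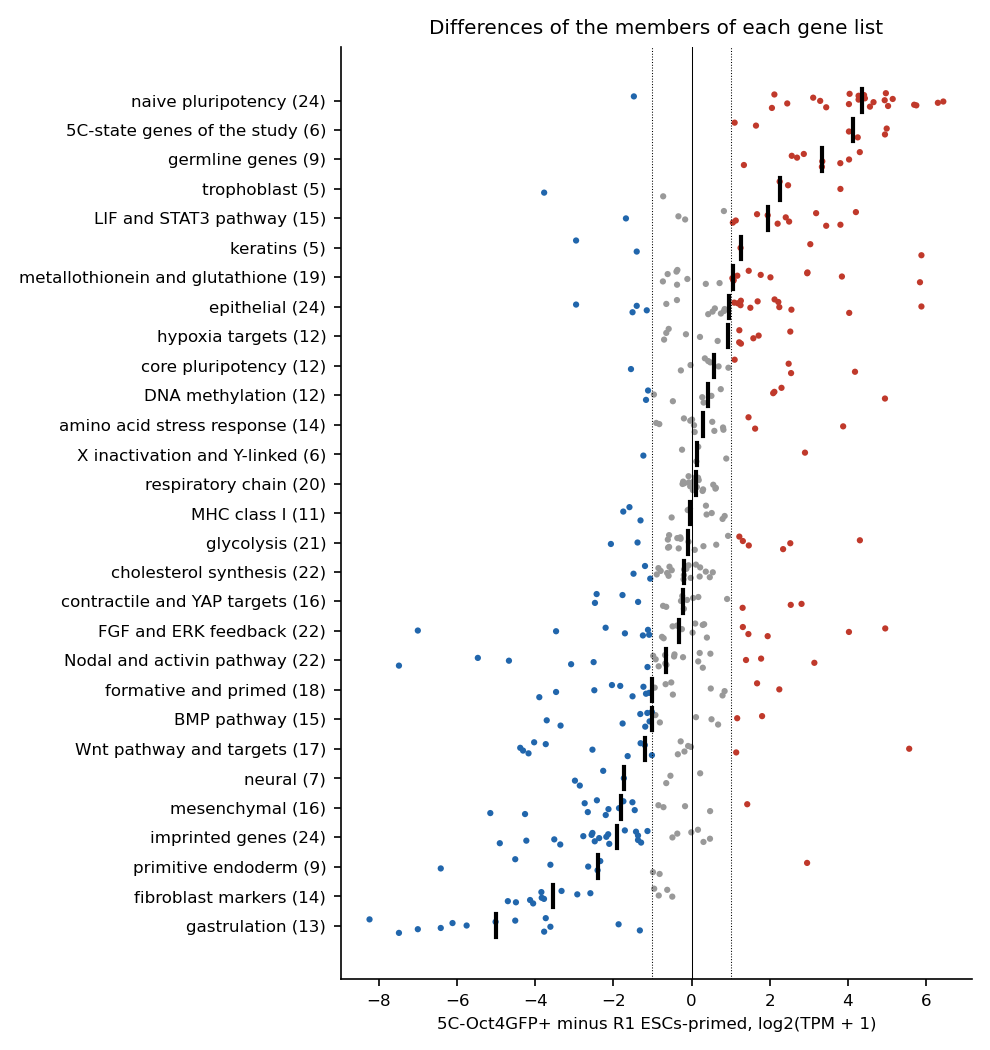
Each row is a gene list with the number of members that passed the filter, each point a member, and the x axis its difference in log2(TPM + 1), 5C-Oct4GFP+ minus R1 ESCs-primed (1 library each). Red points are at least 2-fold higher, blue points at least 2-fold lower, grey points neither, black bars are medians and dotted lines mark 2-fold. In these units naive genes have the highest median (4.35) and gastrulation genes the lowest (-5.02), and the 20 respiratory chain genes lie between the dotted lines.

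Energy metabolism differed in single enzymes rather than as a block. Of 21 glycolysis genes, all above the filter, 6 were at least 2-fold higher, 2 lower and 13 neither, and the median was -0.08, equal to that of all genes at this precision. *Pfkp*, the platelet form of phosphofructokinase, had 287 TPM in 5C-Oct4GFP+ cells and 13.5 TPM in R1 ESCs-primed (ratio 21.2, 17.9 to 25.1), and the muscle form *Pfkm* 110 and 43.8 TPM. *Pdk1*, of the kinase that keeps pyruvate out of mitochondria, had 233 and 39.6 TPM (ratio 5.88, 5.31 to 6.53). *Ldha*, of lactate dehydrogenase A, was 4.19-fold lower (4.06 to 4.31), with 662 and 2770 TPM, and stood at 254 TPM in naive medium and 3279 TPM in primed medium. *Pfkfb3*, of a regulatory kinase of glycolysis, had 3.68 and 11.2 TPM. *Gapdh* had 7973 and 11873 TPM, and *Pkm* 2582 and 3324 TPM.

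All 20 nuclear genes of the respiratory chain passed and none was 2-fold apart, with a median of 0.10 and values between 0.852 (*Ndufa2*, 0.753 to 0.964) and 1.54 (*Cox6a1*, 1.42 to 1.67) of the level in R1 ESCs-primed. Of 22 cholesterol synthesis genes 3 were lower, among them *Hsd17b7* (9.63 and 28.8 TPM) and *Sc5d* (19.03 and 44.7 TPM), and 19 were neither. Over all genes compared 13.2% were lower, so that this count was near that share. *Insig1*, of a feedback regulator of the pathway, had 156 and 107 TPM. Of 16 genes of the amino acid stress response 14 passed, 3 higher and 11 neither, beside 14.2% higher over all genes compared. *Gdf15*, a stress-induced hormone gene, had 25.5 and 0.80 TPM (ratio 31.9, 12.3 to 119), and *Chac1*, of an enzyme that degrades glutathione, 26.2 and 7.81 TPM, whereas *Atf4* had 417 and 278 TPM.

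Among 14 hypoxia targets 12 passed, with 6 higher, 0 lower, 6 neither and a median of 0.94. *Pdk1* and *Slc2a1*, of a glucose transporter, were on this list too. *Ndrg1* had 164 and 49.1 TPM, the mitophagy gene *Bnip3* 142 and 60.3 TPM (ratio 2.35, 2.07 to 2.67), and *Egln3*, of a prolyl hydroxylase that inactivates HIF, 41.9 and 13.4 TPM. *Vegfa*, of the angiogenic ligand, had 35.6 and 53.9 TPM, and *Egln1* 12.9 and 21.7 TPM. The letters ACGTG, the core to which HIF binds, were found on either strand in the promoters of 10 of the 12 members with a RefSeq promoter. They were in 13 of 20 glycolysis promoters, 29.8% of those of the genes compared and 21.8% of all 27025 genes. Of the promoters of genes called higher in 5C-Oct4GFP+ cells 24.6% held them, and of those called lower 25.7%. Promoters run from 250 bases before to 50 after the start. That of *Bnip3* is shown as a member whose single stretch CACGTG reads ACGTG on both strands, on chr7:138909457-138909756 (GRCm38.p6, - strand, RefSeq), with the stretch in capitals.
Bnip3: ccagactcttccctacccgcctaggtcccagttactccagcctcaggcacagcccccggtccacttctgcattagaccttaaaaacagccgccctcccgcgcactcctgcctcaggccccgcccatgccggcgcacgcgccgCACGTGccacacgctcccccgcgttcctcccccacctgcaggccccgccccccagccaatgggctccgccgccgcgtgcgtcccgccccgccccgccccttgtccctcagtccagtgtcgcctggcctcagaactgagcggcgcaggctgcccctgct
A match describes these letters in this window and is not a site of binding.

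Several genes of metal binding and of glutathione use were higher in 5C-Oct4GFP+ cells. Of 20, 19 passed, with 11 at least 2-fold higher, 0 lower and 8 neither, and a median of 1.07. The neighbouring metallothionein genes *Mt1* and *Mt2*, whose proteins bind zinc and copper, had 1390 against 178 TPM and 1595 against 203 TPM. Their ratios were almost equal, 7.82 (6.97 to 8.80) and 7.86 (7.07 to 8.75). *Gpx2*, a glutathione peroxidase gene of the gut epithelium, had 448 and 6.80 TPM (ratio 65.8, 44.8 to 100.9), and *Gstm2*, of a glutathione transferase, 108 and 6.56 TPM. *Gstp2* had 602 and 2.04 TPM. It is nearly identical to *Gstp1* (527 and 154 TPM), so that the division of reads between them is uncertain. The stress enzyme gene *Hmox1* had 89.3 and 137 TPM and *Gpx3* 17.4 and 29.6 TPM. *Mt1* had 1533 TPM in naive medium and 169 TPM in primed medium.

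The promoters of *Mt1* and *Mt2* are shown because the genes had nearly the same ratio. The core of the metal response element was searched as TGCNCNC on both strands, and capitals mark its matches. *Mt1* (chr8:94178839-94179138, + strand) has 3 and *Mt2* (chr8:94172368-94172667, + strand) has 6, on GRCm38.p6 from RefSeq.
Mt1: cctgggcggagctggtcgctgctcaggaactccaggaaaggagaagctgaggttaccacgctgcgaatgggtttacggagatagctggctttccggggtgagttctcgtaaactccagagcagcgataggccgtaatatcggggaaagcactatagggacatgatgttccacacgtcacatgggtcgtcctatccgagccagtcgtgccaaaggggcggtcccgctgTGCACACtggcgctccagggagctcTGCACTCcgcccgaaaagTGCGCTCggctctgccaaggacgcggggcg
Mt2: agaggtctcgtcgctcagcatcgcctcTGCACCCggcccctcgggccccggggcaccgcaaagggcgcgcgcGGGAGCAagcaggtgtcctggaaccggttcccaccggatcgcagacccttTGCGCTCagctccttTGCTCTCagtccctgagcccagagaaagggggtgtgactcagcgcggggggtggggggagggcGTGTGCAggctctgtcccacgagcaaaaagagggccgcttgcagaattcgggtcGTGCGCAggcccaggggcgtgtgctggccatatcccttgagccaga
Such a loose motif is frequent. At least 1 match was in 10 of the 16 promoters of the list that were found, and in 64.4% of those of the genes compared. Of all 27025 genes, 53.6% had at least 1, and at least 3 were in 8.04% and at least 6 in 0.263%.

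Enzymes and guards of DNA methylation differed in both directions. Of 12 genes, all above the filter, 4 were higher, 2 lower and 6 neither, with a median of 0.41. Over all genes compared 14.2% were higher and 13.2% lower. *Dnmt3l*, the cofactor of de novo methylation in germ cells, had 525 TPM in 5C-Oct4GFP+ cells and 16.03 TPM in R1 ESCs-primed (ratio 32.8, 26.8 to 40.4). In the other 5 OG2-derived libraries *Dnmt3l* reached at most 20.2 TPM, in naive medium. *Tet1* and *Tet2*, of the enzymes that oxidize methylcytosine, had 132 against 30.2 TPM and 15.9 against 2.88 TPM, and *Tet3* 4.95 against 11.9 TPM. *Zfp57*, which maintains methylation at imprinted loci, had 436 and 87.6 TPM. *Dnmt3b* was the other lower member (2.25-fold, 2.18 to 2.31), and the maintenance methyltransferase gene *Dnmt1* had 150 and 121 TPM.

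Of 20 germline genes, many of which are silenced by promoter methylation in somatic cells, 9 passed the filter and 11 stayed under 5 TPM in both libraries. The 9 that passed were higher in 5C-Oct4GFP+ cells, with a median of 3.34, or 4.54 without pseudocount and with the floor, and all but *Tex19.1* and *Rhox5* were under 5 TPM in R1 ESCs-primed, so that these 7 passed only through the library in which they were higher. *Tex19.1*, a repressor of transposons, had 126 and 5.44 TPM (ratio 23.2, 16.6 to 33.5). *Piwil2*, of a PIWI protein of the piRNA pathway, had 22.4 and 0.43 TPM. *Dazl*, an RNA-binding gene of germ cells, had 149 reads (9.10 TPM) and none, at least 33.5-fold higher. The 11 below the filter included *Tdrd1* with 0.29 and 0.27 TPM, *Sycp1* with 1.72 and 2.09 TPM and *Brdt* with 0.43 and 0.90 TPM. *Dazl* had 135 TPM in naive medium and *Rhox5* 913 TPM, against 71.3 TPM of *Rhox5* in 5C-Oct4GFP+ cells.

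The E-box CACGTG, which MAX and MGA bind at germline genes, was in 11 of the 17 germline promoters found, on either strand, against 12.2% of those of genes compared and 8.09% of all. It contains ACGTG, so that the motif searches overlap. *Mael* (chr1:166238695-166238994, - strand) has 1 match and had 12.7 and 0.35 TPM, with 107 and 2 reads (ratio 36.4, 9.74 to 302). *Hormad1* (chr3:95559427-95559726, + strand) has 2 matches and had 15.7 and 0.19 TPM, with 119 reads and 1 read (ratio 82.4, 14.5 to 3273). Both are shown as members with the motif that were higher in 5C-Oct4GFP+ cells (GRCm38.p6, RefSeq), with the matches in capitals.
Mael: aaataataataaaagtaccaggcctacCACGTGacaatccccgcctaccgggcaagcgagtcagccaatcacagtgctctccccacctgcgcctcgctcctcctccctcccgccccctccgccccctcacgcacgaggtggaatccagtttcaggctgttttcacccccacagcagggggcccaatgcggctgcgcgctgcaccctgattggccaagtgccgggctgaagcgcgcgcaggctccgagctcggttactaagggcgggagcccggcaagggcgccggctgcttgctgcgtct
Hormad1: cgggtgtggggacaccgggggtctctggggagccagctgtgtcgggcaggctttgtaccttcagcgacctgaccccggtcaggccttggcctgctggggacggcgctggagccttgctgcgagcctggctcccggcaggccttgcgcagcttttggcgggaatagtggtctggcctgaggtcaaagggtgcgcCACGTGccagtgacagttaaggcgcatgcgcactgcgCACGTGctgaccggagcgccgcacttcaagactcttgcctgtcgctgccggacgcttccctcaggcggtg
*Ddx4* and *Sycp3* hold a match and were higher too. *Brdt*, *Sycp1*, *Stk31*, *Tdrd1*, *Taf7l*, *Slc25a31* and *Mov10l1* hold a match as well, but stayed under the filter and were not called higher. *Dazl*, *Rhox5* and *Tex19.1* hold none in this window and were higher, whereas *Sycp2*, *Tex101* and *Asz1* hold none and were not called. Of the promoters of genes called higher in 5C-Oct4GFP+ cells 10.9% held the E-box, and of those called lower 9.91%. The E2F letters GGCGGGAA were in 3 of the 17, against 5.03% of the genes compared and 2.52% of all genes.

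Imprinted genes were lower as a group. Of 30, 24 passed, with 0 higher, 18 lower and 6 neither, and a median of -1.91. Of the 19 above 5 TPM in both libraries, 13 were lower. The paternally expressed growth genes *Dlk1* and *Igf2* had 2.33 against 98.9 TPM (42.5-fold lower, 24.1 to 82.6) and 5.94 against 129 TPM (21.7-fold lower, 17.3 to 27.6). *H19*, the maternally expressed RNA beside *Igf2*, had 49.6 and 281 TPM, so that both genes of this locus were lower. At the *Dlk1* locus the maternally expressed RNAs *Meg3* and *Rian* did not follow *Dlk1*: *Meg3* had 1012 and 730 TPM (ratio 1.39, 1.34 to 1.44), and *Rian* 1199 and 1204 TPM (ratio 0.996, 0.963 to 1.03). *Mest*, of a hydrolase-like protein, had 81.1 and 422 TPM and *Snrpn* 136 and 446 TPM. *Grb10*, of an inhibitor of growth factor receptors, had 125 and 101 TPM. *Igf2* had 95.03 TPM in 5C-Oct4GFP- cells, *H19* had 297 TPM and *Dlk1* 36.3 TPM. Fibroblasts also express some of these genes, and the part of feeder RNA in R1 ESCs-primed was not tested here either.

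Of 10 genes of X inactivation and of the Y chromosome, 6 passed, with 1 higher and 1 lower. *Xist*, the RNA that coats the inactive X, had 22.2 TPM in 5C-Oct4GFP+ cells and 19.6 TPM in R1 ESCs-primed (ratio 1.13, 1.02 to 1.26), against 1.36 TPM in naive medium and 114 TPM in 5C-Oct4GFP- cells. *Ftx*, a long RNA beside *Xist*, had 4.37 and 11.6 TPM. Y-linked genes were read in both libraries, *Ddx3y* with 21.02 and 19.2 TPM and *Eif2s3y* with 73.8 and 39.4 TPM, whereas the demethylase gene *Kdm5d* had 12.6 and 0.82 TPM. *Xist* and *Ddx3y* were thus both present in each library, and whether cells of both sexes or feeder RNA had a part in these values was not tested. By chromosome, the X had 21.3% lower and 15.2% higher genes among its 394 genes compared, and chromosome 17 had 8.54% lower and 17.6% higher among 597. For antigen presentation, 11 of 12 MHC class I genes passed, 3 lower and 8 neither, beside 13.2% lower over all genes compared. *B2m*, of the light chain, had 60.3 and 151 TPM and *H2-D1* 31.6 and 17.8 TPM.

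The 6 genes that the study used to mark the 5C state were chosen by it on these samples and are no independent evidence. All 6 were higher by 2-fold or more in 5C-Oct4GFP+ cells, with a median of 4.14. *Apoe*, of the lipid carrier apolipoprotein E, had 2123 TPM in 5C-Oct4GFP+ cells and 110 TPM in R1 ESCs-primed (ratio 19.2, 17.5 to 21.2). *Ooep*, a maternal gene of the oocyte, had 83.1 and 1.64 TPM, *Rbpj*, of the effector of Notch signalling, 183 and 57.7 TPM, and *Utf1*, a chromatin factor of pluripotent cells, 1034 and 481 TPM. *Utf1* had 119 TPM in naive medium and 528 TPM in primed medium.

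Among the 20 genes with the largest positive difference, *Klk1*, of the protease tissue kallikrein, led with 3286 reads (717 TPM) in 5C-Oct4GFP+ cells and none in R1 ESCs-primed, at least 738-fold higher. *Gpa33*, of an epithelial surface antigen, had 249 and 1.69 TPM (ratio 147, 87.5 to 269), *Ly6g6e*, of the Ly6 family, 107 and 0 TPM, and *Morc1*, a repressor of transposons in male germ cells, 190 and 1.22 TPM. *Mep1b*, of the metalloprotease meprin β, had 54.1 and 0 TPM, and *Phf11d* and *AI662270*, uncharacterized or little studied genes, had 79.3 against 0.26 TPM and 159 against 0.96 TPM. *Mep1b*, *Ly6g6e*, *Morc1*, *Phf11d* and *AI662270* were also over 70 TPM in mES-Oct4GFP+ cells and in naive medium. *Aire*, whose product lets the thymus express tissue antigens, had 763 reads (112 TPM) in 5C-Oct4GFP+ cells, 2 reads (0.52 TPM) in R1 ESCs-primed, and at most 2.08 TPM in the other 5 libraries. *Aire* (chromosome 10, 78030022 to 78043610, - strand) overlaps the opposite-strand gene *Dnmt3l* (78041947 to 78063622), which had 525 and 16.03 TPM, and with no strand stated for the counting their reads cannot be told apart where they overlap. *Clec2i*, of a lectin-like receptor ligand, had 57.0 and 0.09 TPM and stood at 24.1 TPM in 5C-Oct4GFP- cells.

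A further set of these 20 was higher still in the GFP- fraction of the 5C culture. *Klk1* had 1149 TPM there, *Krt17* 139 TPM, *Lgals7* (galectin-7, of stratified epithelia) 772 TPM beside 74.2 TPM in 5C-Oct4GFP+ cells, *Msln* (mesothelin) 120 beside 62.8 TPM, *Fcgr2b* (an inhibitory Fc receptor gene) 148 beside 70.8 TPM, and *Klf4* 1512 beside 522 TPM. In R1 ESCs-primed these had at most 5.01 TPM. *Gm38226*, an unclassified transcript on chromosome 9, was at least 150-fold higher, with 261 TPM from 668 reads and no read in R1 ESCs-primed.

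The 20 genes with the largest negative difference held 7 of the 13 gastrulation genes compared. *Cyp26a1*, of the enzyme that breaks down retinoic acid, had 2 reads (0.21 TPM) and 719 reads (110 TPM), a ratio of 524 (147 to 4414) in favour of R1 ESCs-primed. *Amot*, of the adaptor angiomotin that holds YAP at junctions, had 2.38 and 220 TPM (92.5-fold lower, 71.6 to 122). *Lhx1*, *Gsc* and *Mixl1*, homeobox genes of the streak and organizer, had 0.51 against 104 TPM, 0.73 against 92.5 TPM and 0.16 against 36.5 TPM. Matrix genes were also among them: *Mgp* (matrix Gla protein) with 0 and 141 TPM, *Bgn* (biglycan) with 1.92 and 140 TPM, *Tnc* (tenascin C) with 0.58 and 69.3 TPM, *Mmp3* (stromelysin) with 0.10 and 74.4 TPM, and *Pkdcc*, of a secreted kinase, with 2.33 and 153 TPM. *Mgp* and *Bgn* had 101 and 134 TPM in 5C-Oct4GFP- cells, and the part of feeder fibroblasts in their level in R1 ESCs-primed was not tested. *Gm20721*, *Pgk1-rs7* and *Hist1h2ap* were also among the 20. They may share reads with near-identical or overlapping genes, and their values are uncertain.

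**Figure D4:**
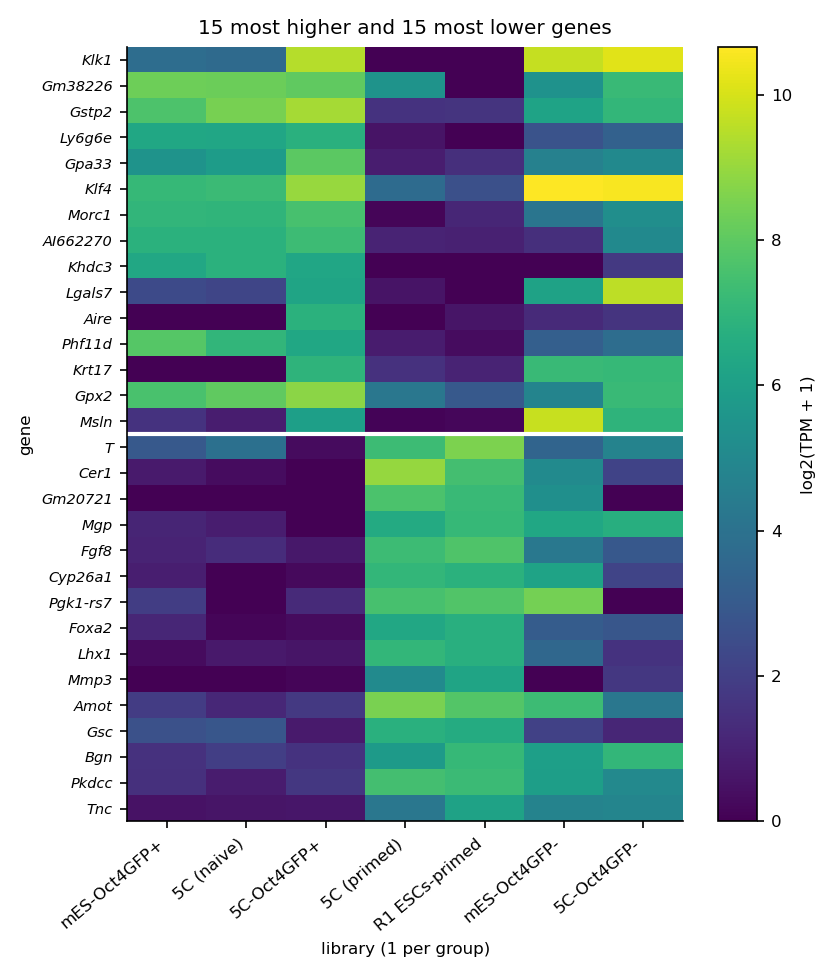
Colour gives log2(TPM + 1) in the 7 libraries (columns, 1 library per group) for the 15 genes with the largest positive difference (above the white line) and the 15 with the largest negative difference between 5C-Oct4GFP+ cells and R1 ESCs-primed. *Khdc3*, *Morc1* and *Phf11d* are bright in mES-Oct4GFP+, naive and 5C-Oct4GFP+ cells, *Klk1* and *Krt17* in the GFP- libraries too, and *Aire* (112 TPM) in 5C-Oct4GFP+ cells.

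Of the 1661 higher genes, 583 (35.1%) had their highest level of all 7 libraries in 5C-Oct4GFP+ cells, 319 (19.2%) in mES-Oct4GFP+ cells, 309 (18.6%) in mES-Oct4GFP- cells, 233 (14.03%) in 5C-Oct4GFP- cells and 211 (12.7%) in naive medium. Over all 11703 genes these shares were 11.4%, 15.5%, 24.4%, 15.3% and 8.94%. Of the 1543 lower genes, 484 (31.4%) were highest in R1 ESCs-primed, 380 (24.6%) in mES-Oct4GFP- cells and 367 (23.8%) in primed medium, against 12.4%, 24.4% and 12.1% of all genes. Because the genes were chosen for their order between 5C-Oct4GFP+ cells and R1 ESCs-primed, the shares of these libraries carry that choice. It moves the shares of all other libraries too, so that none of these shares can be compared directly with that of all genes.

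The comparison was set beside that of 5C-Oct4GFP+ cells carried in naive medium with those carried in primed medium, which shares no library with it and keeps the OG2 origin constant. Between these, 1746 of 11601 genes (15.1%) were at least 2-fold higher in naive medium and 2400 (20.7%) lower, together 35.7%. Of the 1661 genes higher in 5C-Oct4GFP+ cells than in R1 ESCs-primed, 836 were also higher in naive than in primed medium, which is 50.3% of the former and 47.9% of the 1746, and 98 (5.90%) were lower. Of the 1543 lower genes, 991 were lower in naive medium, 64.2% of these and 41.3% of the 2400, and 45 (2.92%) were higher. Over all 11703 genes 11.9% were higher and 19.4% lower in naive medium. *Esrrb*, *Fbxo15* and *Dppa5a* were among the shared higher genes, and *Cer1*, *Fgf8* and *Amot* among the shared lower ones. The other 727 higher genes (43.8%) and 507 lower genes (32.9%) were not 2-fold apart between the media or were lowly expressed in both. *Aire* and *Krt17* belonged to these, with 0 TPM in naive medium and 0 and 1.83 TPM in primed medium.

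**Figure D5:**
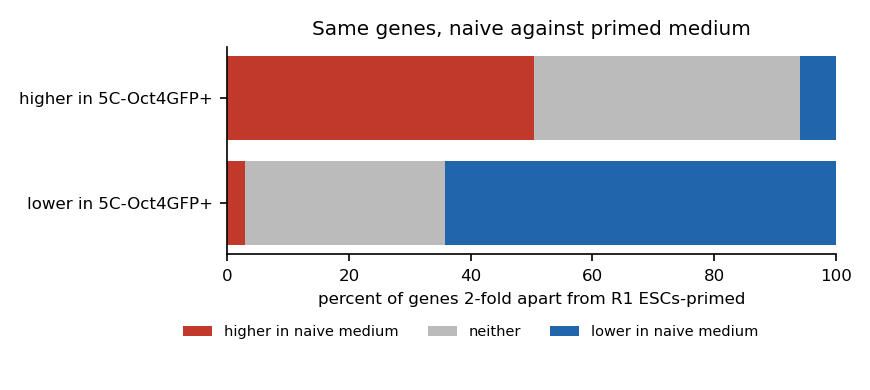
Bars give the percent of the genes at least 2-fold higher (1661) or lower (1543) in 5C-Oct4GFP+ cells than in R1 ESCs-primed that were at least 2-fold higher (red), lower (blue) or neither (grey) in naive against primed medium (1 library each). The red part is 50.3% of the upper bar and the blue part 64.2% of the lower bar.

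A few genes differed between R1 ESCs-primed and every library of OG2 origin. Among 13567 genes with at least 5 TPM in any library, 3 were at least 4-fold higher in all 6 OG2-derived libraries than in R1 ESCs-primed and 4 were at least 4-fold lower, on log2(TPM + 1). The higher ones were *Gm38226*, *Platr11*, a long noncoding RNA with 4.55 to 42.3 TPM against 0 TPM, and *Kdm5d*, with 8.79 to 19.9 TPM against 0.82 TPM. The lower ones were *Gm11192*, with 0 TPM in all 6 and 6.70 TPM in R1 ESCs-primed from no more than 2 reads, *St8sia3os* with at most 0.42 against 7.59 TPM, *Gm28901* with at most 4.04 against 21.4 TPM, and *Tfpi2*, of a protease inhibitor, with at most 0.88 against 6.80 TPM. *Gm11192* and *St8sia3os* are antisense genes, and with no strand stated for the counting their reads cannot be told apart from those of the opposite strand. Noncoding classes leaned to 5C-Oct4GFP+ cells: 47.3% of 167 lincRNAs compared were higher and 10.2% lower, against 13.1% and 13.2% of 11146 protein-coding genes.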

How the data were processed

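RNA was extracted with TRIzol from 7 libraries, 1 per group, of which 5C-Oct4GFP+ cells and R1 ESCs-primed were compared. Per the labels, groups were set by cell line, medium and sorted fraction. The submitters' processing notes name Bowtie, RSEM and the mm10 build, with versions not given in the sources used here. The authors deposited 1 RSEM table per library with 29267 Ensembl genes, holding the expected count (estimated reads, shared among genes where a read fits several), the deposited TPM and the deposited FPKM. TPM is relative, so a few abundant genes shift all others.

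Symbols were taken from GENCODE M21, which named 28756 genes. The remaining 511 have no symbol here, and most ribosomal protein genes and the mitochondrial genes were not found by symbol and were not analysed here. Genes with at least 5 TPM in either library were compared by the difference in log2(TPM + 1), and a 2-fold difference was called. With no replicates no test was run across genes. Ratios of TPM were given exact Clopper-Pearson 95% intervals from the expected counts, rounded to whole numbers, which were tested on simulated data and cover counting error only, since reads without molecular identifiers are not independent molecules. Genes with no read were set to 3 counts. Promoters came from RefSeq (GRCm38.p6), from 250 bases before to 50 after the start, with 27025 symbols.

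The gene lists and members were chosen with earlier results of these data known. Named genes were the 20 with the largest difference in each direction, the 2 highest and 2 lowest of each list with defining members that did not differ, the state genes named in the study and those apart from R1 ESCs-primed in all 6 OG2-derived libraries. Other list members, and levels in the other 5 libraries, were named for their role after their values were seen. Some genes that these rules name are not reported here. Alternatives were other pseudocounts, filters, folds and scalings (TMM of edgeR 4.0.16 in R 4.3.3, median ratio, FPKM). Intervals were computed with scipy 1.17.1 and tables with pandas 2.3.3 and numpy 2.4.6, under Python 3.11.15, and plots drawn with matplotlib 3.10.9.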

Additional observations from a re-analysis of the deposited data

How the results depend on the processing

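No paired analysis was possible because each group had 1 library. Among the 29 list medians and 440 named genes, none with a difference of at least 1 in either direction changed sign under another pseudocount or scaling. A pseudocount cannot change the sign of a gene, and the scalings moved the median of all genes little. This outcome was thus nearly fixed in advance and is no measure of robustness. The signs of the other called genes were not checked. Of the 1661 higher and 1543 lower genes, the lower count was 998 with a pseudocount of 5 and 2332 with a filter of 1 TPM or with none, which are the same set because a 2-fold difference on log2(TPM + 1) needs at least 1 TPM. A filter of 20 TPM gave 986 higher and 730 lower genes, and a threshold of 4-fold gave 760 and 542. The share of higher genes that were also higher in naive than in primed medium was 53.7% at 4-fold and 54.9% with the counting interval wholly beyond 2-fold. The share of lower genes that were also lower in naive medium was 60.9% with a filter of 1 TPM, 60.9% with none, 61.3% at 4-fold and 69.7% with the interval beyond 2-fold. TMM scaling moved the median of all genes from -0.08 to 0.03, and higher genes made up 51.1% to 56.5% of calls over the scalings and pseudocounts, beside 51.8%. Over the alternatives, 164 values of the 29 list medians stayed within the 95% interval of the median over members and 10 did not, and of the 440 named genes 2262 values moved by less than the width of the counting interval to either side and 378 by more. The ratio with a 3-count floor and no pseudocount was chosen after seeing the data. The spread between cultures was not measured in this design, and genes near 5 TPM rest on few reads.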
